A study of Mus musculus with 2 samples.

Results

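The miR-200 family of the mouse is made of 5 miRNA hairpin genes in 2 clusters, and it was read here in small RNA libraries of J1 embryonic stem cells. The members were taken by gene symbol, not by their values: Mir200b, Mir200a and Mir429 on chromosome 4, and Mir200c and Mir141 on chromosome 6. They are 5 of 1174 miRNA hairpin genes with a Mir symbol in the mouse annotation (GENCODE M21). J1 is an established line of mouse embryonic stem cells from the strain 129S4/SvJae, grown on gelatin in a medium with serum replacement and 1000 U/mL LIF, a cytokine that sustains self-renewal. One group received 1 µM SC1 for 6 h and the other the same volume of DMSO, the solvent, for 6 h. SC1, also called pluripotin, is a synthetic compound that is known to block both ERK1 and RasGAP. Both groups had the LIF medium and no genetic change is named in the labels. Each group had 1 library, so no value below has a replicate error and no test between groups was possible.

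The miR-200 miRNAs are known as keepers of the epithelial state. Their 3p arms bind the transcripts of Zeb1 and Zeb2, repressors of the adhesion gene Cdh1 (E-cadherin), and the Zeb proteins in turn repress both miR-200 clusters. Mouse embryonic stem cells grow as compact colonies with E-cadherin contacts, and the family is known to rise in the mesenchymal to epithelial transition of reprogramming. A miRNA hairpin is cut to a duplex whose strands are called 5p and 3p after their side of the hairpin, and bases 2 to 8 of a strand, the seed, choose most of its targets.

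The mature sequences from RefSeq (GRCm38.p6) are shown because the family is grouped by their seeds, which stand in capitals. All 5 hairpins and their 10 mature strands were found in that table. The 3p strands fell into 2 seed groups.
miR-200b-3p: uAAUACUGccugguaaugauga
miR-200c-3p: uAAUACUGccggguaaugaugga
miR-429-3p: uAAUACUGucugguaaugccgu
miR-200a-3p: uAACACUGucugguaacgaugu
miR-141-3p: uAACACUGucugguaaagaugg
Between miR-200b-3p and miR-200a-3p the seed differed by U4C, counted from 1 at the 5′ end of the mature strand. The seeds thus differed at 1 base, and each cluster held both groups. Over the first 22 bases miR-200b-3p and miR-200c-3p were identical at 20, and so were miR-200a-3p and miR-141-3p. The pairs with most differences, such as miR-429-3p and miR-141-3p, shared 17.

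The 5p strands are shown because they separated the members further, with 4 seeds among 5 strands. Only miR-200b-5p and miR-200a-5p shared a seed.
miR-200b-5p: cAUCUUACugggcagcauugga
miR-200a-5p: cAUCUUACcggacagugcugga
miR-200c-5p: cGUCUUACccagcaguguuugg
miR-429-5p: gUCUUACCagacaugguuaga
miR-141-5p: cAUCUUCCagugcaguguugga

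On GRCm38, Mir200b lay at 156055681 to 156055750, Mir200a at 156054896 to 156054985 and Mir429 at 156053905 to 156053987 of chromosome 4, all on the minus strand. They spanned 1846 bp within an intron of the protein-coding gene Ttll10 on the same strand. The non-coding gene Gm13648 overlapped them too, with Mir429 in an exon and the other members in an intron. Mir200c lay at 124718322 to 124718390 and Mir141 at 124717914 to 124717985 of chromosome 6, also on the minus strand, and together they spanned 477 bp. Both lay in an intron of the non-coding gene Gm15884, and Mir141 overlapped an exon of the unvalidated gene Gm29008. The nearest protein-coding genes were Phb2 at 964 bp and Ptpn6 at 2317 bp.

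The data of a library were a deposited list of its tags, each a sequence with the raw count of its reads. The DMSO list held 18870345 reads of 18 to 44 nt and the SC1 list 1275599 reads of 3 to 17 nt, so they shared 0 tag lengths and no member can be called higher or lower after SC1. The members were counted from DMSO tags of 18 to 26 nt and from SC1 tags of 15 to 17 nt that matched a hairpin exactly. In DMSO 2177993 reads of that window matched any hairpin (13.1%), and this number is the base of all levels, given as RPM (reads in each 1000000 hairpin-matched reads). A mature miRNA gives 1 read whatever its length, so levels were not divided by length. Reversed tags, used as a measure of chance matches, gave 0 reads on the members in either list. Every interval is the exact (Clopper-Pearson) 95% binomial interval, which covers counting error only: without molecular identifiers, copies of 1 molecule can be counted several times.

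In the DMSO library the family held 2614 reads in 64 distinct tags, 0.120% of the hairpin-matched reads (interval 0.115 to 0.125). No tag of a member matched a second hairpin. The family sum of 1200.2 RPM was below the level of 84 single hairpins. By hairpin, Mir200a had 934 reads (429 RPM, interval 402 to 457) and Mir200b 933 (428 RPM, interval 401 to 457), ranks 130 and 131 of 741 hairpins with reads. Mir200c had 390 reads (179 RPM, interval 162 to 198; rank 183) and Mir429 had 327 (150 RPM, interval 134 to 167; rank 192). Mir141 had 30 reads (13.8 RPM, interval 9.29 to 19.7; rank 375). The median hairpin with reads was at 14.7 RPM, so 4 of 5 members lay above it and Mir141 just below.

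The chromosome 4 cluster carried most of the family. It had 2194 reads (1007 RPM, interval 966 to 1050), 83.9% of the family, and the chromosome 6 cluster had 420 (193 RPM, interval 175 to 212), 16.1%. The first was 5.22 times the second (interval 4.70 to 5.81). Members of a cluster are thought to come from a shared primary transcript, but their reads were not equal. On chromosome 6 the 3p reads of Mir200c were 20.5 times those of Mir141 (interval 12.9 to 34.4). On chromosome 4 Mir200b and Mir200a differed by 1 read as whole hairpins, and the 3p reads of Mir200a were 2.80 times those of Mir429 (interval 2.47 to 3.19).

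Grouped by seed, the 3p strands with AAUACUG (miR-200b, miR-200c and miR-429) had 1454 reads, 668 RPM (interval 634 to 703). Those with AACACUG (miR-200a and miR-141) had 936 reads, 430 RPM (interval 403 to 458). The first group was 1.55 times the second (interval 1.43 to 1.69). The AACACUG group rested on 1 member, with 917 reads of miR-200a-3p and 19 of miR-141-3p. The AAUACUG group was spread over 3, with 738 reads of miR-200b-3p, 389 of miR-200c-3p and 327 of miR-429-3p.

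The order of the arms was miR-200a-3p at 421 RPM (interval 394 to 449), miR-200b-3p at 339 RPM (interval 315 to 364), miR-200c-3p at 179 RPM (interval 161 to 197) and miR-429-3p at 150 RPM (interval 134 to 167). miR-200b-5p followed at 89.5 RPM (interval 77.4 to 103). The intervals of miR-200c-3p and miR-429-3p overlapped, and their ratio was 1.19 (interval 1.02 to 1.38). miR-141-3p at 8.72 RPM (interval 5.25 to 13.6) and miR-200a-5p at 7.81 RPM (interval 4.55 to 12.5) did not differ beyond counting error. At the bottom stood miR-141-5p with 3 reads, miR-200c-5p with 1 and miR-429-5p with 0, which allows up to 1.38 RPM. Intervals hold for 1 library, and a second culture could differ by more.

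**Figure D1:**
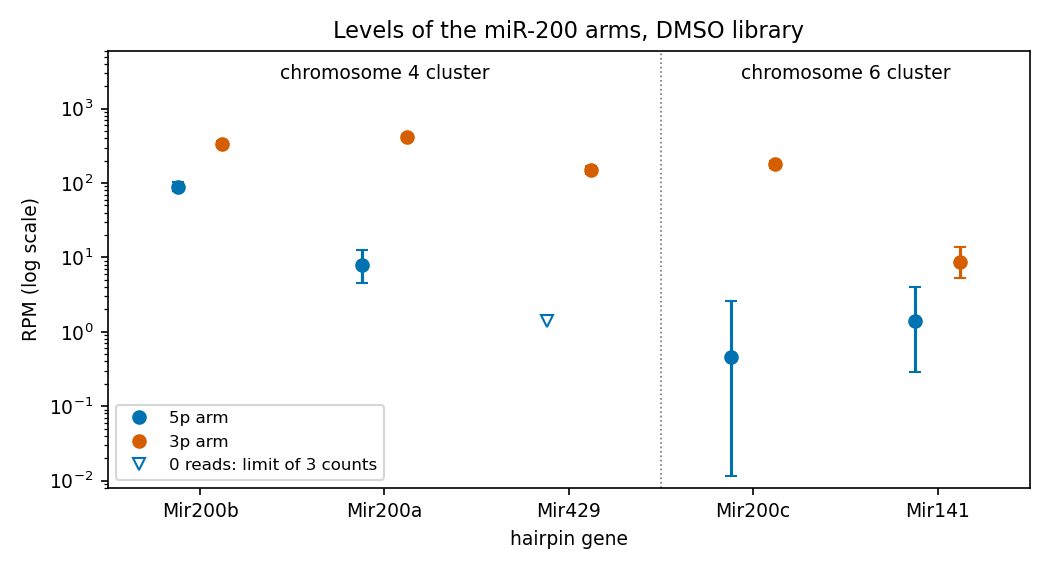
Level of each arm in the DMSO library in RPM on a log axis, by hairpin gene, with 5p arms in blue and 3p arms in orange. Bars are exact 95% binomial intervals, and the open triangle is the limit of 3 counts for miR-429-5p, which had 0 reads. The 3p arms of Mir200b, Mir200a, Mir429 and Mir200c lie between 150 and 421 RPM, while Mir141 lies lower at 8.72 RPM and miR-200b-5p is the highest 5p arm at 89.5 RPM.

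In all 5 hairpins the 3p arm had more reads than the 5p arm. Across the 196 hairpins with both arms annotated and 100 reads or more, the median 3p share was 32.5%, with quartiles at 2.01% and 96.3%. The 3p share was 79.1% for Mir200b (interval 76.3 to 81.7), 98.2% for Mir200a (interval 97.1 to 98.9), 99.7% for Mir200c (interval 98.6 to 100.0) and 86.4% for Mir141 (interval 65.1 to 97.1). For Mir429 all 327 arm reads were 3p (lower limit 98.9%). As ratios, the 3p arm of Mir200b had 3.78 times the reads of its 5p arm (interval 3.23 to 4.45) and that of Mir200a 53.9 times (interval 33.5 to 93.0). Mir200b thus kept by far the most 5p reads, 195 against 21 in the other 4 hairpins together, and its 5p strand has the same seed as that of Mir200a. Of the 17 5p reads of Mir200a, 14 were 19 nt and 2 were 18 nt, the shortest length in the list. Any shorter 5p reads would be missing from its share and ratio, and the intervals do not cover this.

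The hairpins from RefSeq are shown with the annotated arms in capitals, because DMSO reads between the arms were found in 1 of them.
Mir200b: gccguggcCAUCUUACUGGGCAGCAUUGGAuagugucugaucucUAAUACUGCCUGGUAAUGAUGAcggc
Mir200a: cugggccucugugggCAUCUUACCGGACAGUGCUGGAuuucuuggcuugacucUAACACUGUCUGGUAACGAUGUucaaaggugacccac
Mir429: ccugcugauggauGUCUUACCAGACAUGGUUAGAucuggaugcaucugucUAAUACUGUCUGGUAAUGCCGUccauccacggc
Mir200c: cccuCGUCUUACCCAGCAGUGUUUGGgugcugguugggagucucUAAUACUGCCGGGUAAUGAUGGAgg
Mir141: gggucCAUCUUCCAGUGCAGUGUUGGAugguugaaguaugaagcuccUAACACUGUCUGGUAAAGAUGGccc
In Mir141 the stretch between the arms runs from base 28 to base 47, 20 nt in all. A DMSO tag of exactly that stretch, tggttgaagtatgaagctcc, had 4 reads, and tags from the same start of 19 nt and 18 nt had 2 reads each. These 8 reads made up 26.7% of the 30 reads of Mir141 (interval 12.3 to 45.9), more than its 5p arm had. The other 4 hairpins had 0 reads between their arms. That stretch is 14 nt in Mir200b, 16 nt in Mir200a and in Mir429, and 18 nt in Mir200c. With 18 nt as the shortest DMSO tag, no such read was possible in Mir200b, Mir200a or Mir429. Of 268 hairpins with both arms annotated and 20 reads or more, 15 (5.60%) had any read between them, and 3, Mir141 included, had a share as large. Hairpins whose stretch is too short for an 18 nt tag were not set apart among the 268.

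**Figure D2:**
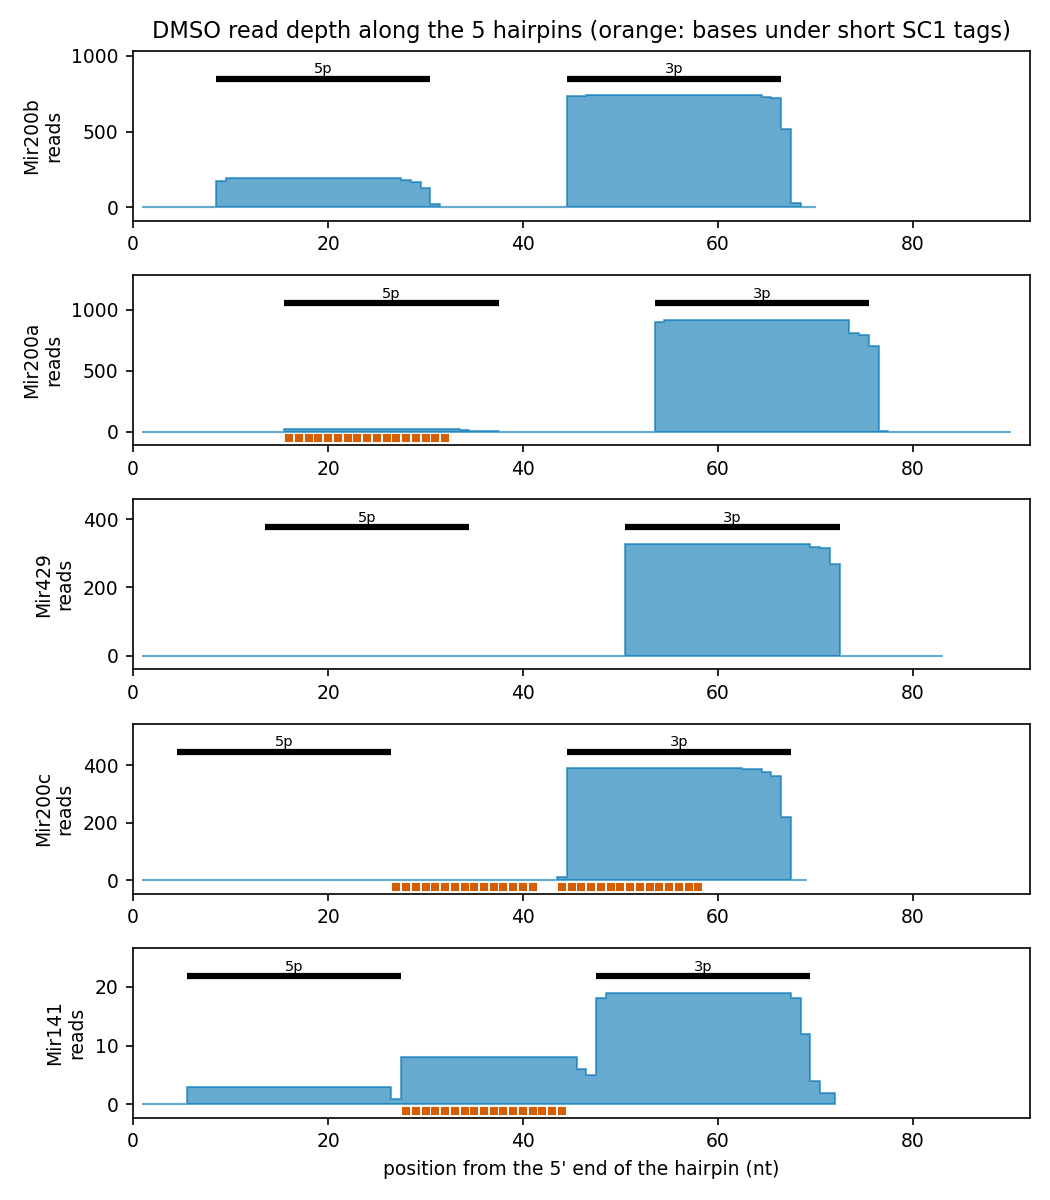
DMSO reads over each base of the 5 hairpins, by distance in nt from the hairpin's 5′ end, with black bars for the annotated arms and orange marks for bases under short SC1 tags. Reads stand on the arms with sharp 5′ edges. Mir200b has a visible 5p block of 195 reads, and Mir141 is filled between its arms by 8 reads. The vertical scale differs between panels, from a highest depth of 19 reads in Mir141 to 917 in Mir200a.

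Among exact matches the 5′ ends of the 3p arms were nearly uniform, and so were their seeds. Of 2390 reads of the 5 3p arms, 2352 (98.4%, interval 97.8 to 98.9) began at the annotated base. Over 276 arms with 100 reads or more the median was 98.1%, with quartiles at 86.1% and 99.6%. miR-200c-3p had 12 of 389 reads (3.08%) starting 1 base earlier, with the seed UAAUACU. miR-200a-3p had 12 of 917 (1.31%) starting 1 base later, with the seed ACACUGU. The arm with most shifted reads was miR-200b-5p, where 21 of 195 (10.8%) started 1 base later and read UCUUACU as the seed. Reads that matched only after removal of 3′ A or T are left out of these counts. Of those reads, 28 of 171 in miR-200b-3p and 25 of 203 in miR-200a-3p began after the annotated start. In miR-200c-3p it was 2 of 59 and in miR-429-3p 0 of 13.

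The 3′ ends varied more, and the most frequent form was not always the annotated one. The main tags are shown with bases beyond the annotated end in capitals.
miR-200b-3p, 23 nt: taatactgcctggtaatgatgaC
miR-200a-3p, 23 nt: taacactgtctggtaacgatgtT
miR-200c-3p, 23 nt: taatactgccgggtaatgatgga
miR-429-3p, 22 nt: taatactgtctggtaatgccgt
miR-141-3p, 22 nt: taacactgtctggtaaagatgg
miR-200b-5p, 22 nt: catcttactgggcagcattgga
miR-200a-5p, 19 nt: catcttaccggacagtgct
The 23 nt tag of miR-200b-3p, 1 base longer than annotated, had 487 of 738 reads (66.0%), and the annotated tag had 203 (27.5%). For miR-200a-3p the 23 nt tag had 687 of 917 reads (74.9%), ahead of a 20 nt tag with 102 (11.1%) and the annotated 22 nt tag with 92 (10.03%). The 20 nt form was set apart, since 21 nt held 2.29% of the arm. miR-200c-3p had its annotated 23 nt tag in 216 reads (55.5%) and the 22 nt tag in 135 (34.7%). miR-429-3p kept to its annotated 22 nt tag with 268 of 327 reads (82.0%), with 46 (14.1%) at 21 nt and 0 at 23 nt. Over 276 arms the median share of reads exactly as annotated was 40.2%, with quartiles at 15.8% and 72.6%.

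**Figure D3:**
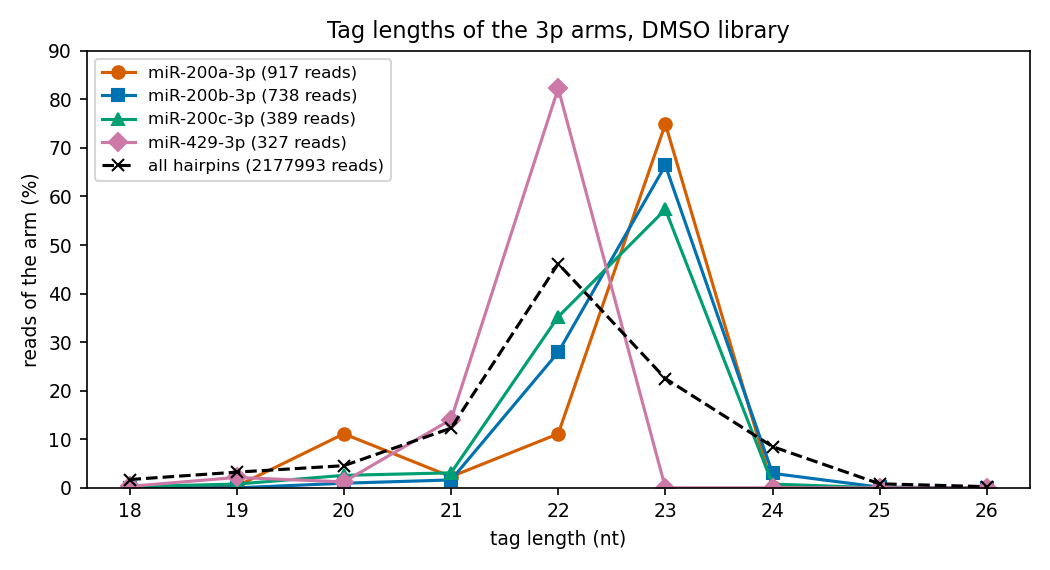
Share of reads at each tag length from 18 to 26 nt for the 4 most abundant 3p arms of the family and for all hairpin-matched reads of the DMSO library (black, dashed). miR-200a-3p, miR-200b-3p and miR-200c-3p peak at 23 nt with 74.9%, 66.4% and 57.3% of their reads, while miR-429-3p peaks at 22 nt with 82.3%, the length at which all hairpins peak with 46.1%.

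By length, 23 nt held 22.5% of all hairpin-matched reads against 74.9%, 66.4% and 57.3% in miR-200a-3p, miR-200b-3p and miR-200c-3p. The length profiles nearest to miR-200a-3p, among 159 arms of other hairpins with 500 reads or more, were Mir20b-5p, Mir106a-5p and Mir3095-3p. They differed from it in 6.86%, 9.12% and 10.4% of the reads, measured as the summed excess over the 9 lengths in 1 library. The 5p arms ended differently. miR-200b-5p had 99 of 195 reads as annotated and 50 of 21 nt, 44 of them in 1 tag, while miR-200a-5p had 14 of 17 reads at 19 nt, 2 at 18 nt and 1 at the annotated 22 nt. The read of miR-200c-5p had its annotated 22 nt, and miR-141-5p had 2 reads of 21 nt and 1 of 22 nt. Among the 19 reads of miR-141-3p the annotated tag had 8, the 21 nt tag 6 and a 23 nt tag 2. The listed Mir200c hairpin ends 2 bases after its 3p arm and that of Mir141 3 bases after. Templated tags of these 3p arms that reach further could not match. Tags of 27 nt or more gave 0 reads on any member.

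Some tags matched a member only after 1 to 3 bases of A or T were removed from the 3′ end. Such untemplated tails are known to be added by terminal nucleotidyl transferases. The exact count leaves these reads out. An added A or T that equals the next base of the hairpin counts as an exact match and is not seen as a tail. After the annotated 3p end that base is U (T in a tag) in Mir200a and C in Mir429. The tailed shares of different arms are thus not measured alike. The most frequent tailed tags are shown with the tail in capitals.
miR-200b-3p, 93 reads: taatactgcctggtaatgatgacA
miR-200b-3p, 36 reads: taatactgcctggtaatgatgacT
miR-200a-3p, 85 reads: taacactgtctggtaacgatgttT
miR-200a-3p, 81 reads: taacactgtctggtaacgatgttA
miR-200c-3p, 24 reads: taatactgccgggtaatgatggaA
miR-200c-3p, 10 reads: taatactgccgggtaatgatggaT
miR-429-3p, 7 reads: taatactgtctggtaatgccgtT
miR-429-3p, 3 reads: taatactgtctggtaatgccgtA
Tailed reads numbered 465 over the 10 arms. They made up 18.8% of miR-200b-3p (171 of 909, interval 16.3 to 21.5), 18.1% of miR-200a-3p (203 of 1120, interval 15.9 to 20.5) and 13.2% of miR-200c-3p (59 of 448, interval 10.2 to 16.7). In miR-429-3p they were 3.82% (13 of 340, interval 2.05 to 6.45), an interval apart from those of the other 3. The median over 286 arms was 6.63%, with quartiles at 3.24% and 15.3%. By base, miR-200b-3p carried A tails in 113 reads and T tails in 54, and miR-200a-3p A in 110 and T in 88. miR-200c-3p had 28 of each, and miR-429-3p had 8 T and 4 A. miR-200b-5p had 15 tailed reads of 210 (7.14%), and miR-141-3p had 3 of 22. In 1 of these 3 reads the tail TT followed the last base of the listed hairpin. Whether that TT was templated could not be seen.

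**Figure D4:**
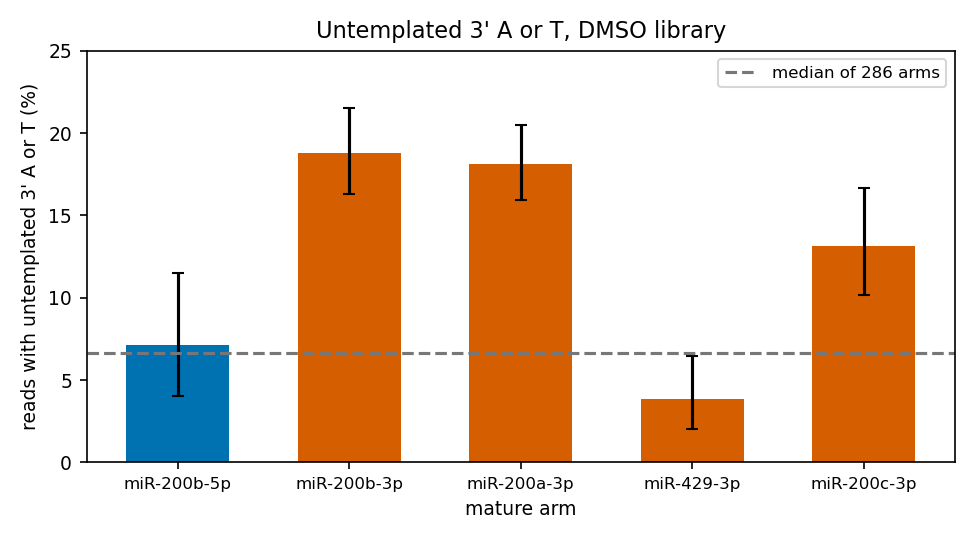
Share of reads with an untemplated 3′ A or T in the 5 most abundant arms of the family, with 3p arms in orange and the 5p arm in blue, and the median of 286 arms as a dashed line at 6.63%. Bars start at 0 and error bars are exact 95% binomial intervals. miR-200b-3p, miR-200a-3p and miR-200c-3p lie above the line, at 18.8%, 18.1% and 13.2%, and miR-429-3p below it at 3.82%.

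Since the members are so alike, exact tags 1 base from a tag of another member were counted. They numbered 18 of 933 reads for Mir200b, against tags of Mir200c, and 22 of 390 for Mir200c, against tags of Mir200b. For Mir200a they numbered 18 of 934, against tags of Mir141, and for Mir141 6 of 30, all near tags of Mir200a. Reads of miR-200a-3p with 1 substitution in bases 1 to 22 numbered 8, and 0 of them fell on base 17. There miR-141-3p carries C17A, and a read with that change and no more than 21 nt would count as miR-141-3p. With 8 reads spread over 22 bases, a count of 0 at 1 base cannot show whether such changes occur. Whether the 6 reads of Mir141 came from Mir200a was not tested. The other 13 reads of miR-141-3p were not 1 substitution from any Mir200a tag in the list. The 327 reads of Mir429 also lie in the exon of Gm13648 and 19 reads of Mir141 in that of Gm29008. Of the miR-429-3p reads 99.4% began at the annotated start of the arm, and of the miR-141-3p reads 17 of 19 (89.5%, interval 66.9 to 98.7). Whether any of these reads were pieces of the longer transcripts was not tested.

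The labelled cell type was checked by its miRNAs. The miR-290 to miR-295 hairpins, the main cluster of mouse embryonic stem cells, took 28.6% of the hairpin-matched reads, and all 6 listed hairpins lay above every miR-200 member, with a median of 25454 RPM. The Mir302 and Mir367 hairpins, known from primed pluripotent cells, summed to 132 RPM, with Mir302a at 90.5 RPM and Mir367 at 1 read. Of markers of other cells, 4 of 5 fibroblast hairpins had reads (Mir143 at 946 RPM, Mir199a-1 and Mir199a-2 at 267 RPM each, Mir145a at 62.4 RPM), and Mir214 had 0. Tags of several hairpins were split equally, so the equal levels of Mir199a-1 and Mir199a-2 can come from shared tags. Of the liver and gut list Mir192 was at 5036 RPM, Mir122 at 25.3 RPM and Mir194-1 at 3.44 RPM. Of the muscle list Mir1a-1 was at 681 RPM, Mir206 at 27.1 RPM and Mir133a-1 at 3 reads, and of the blood list Mir144 had 12 reads, Mir451a 7 and Mir223 0. The part of other cells in the miR-200 reads was not tested.

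Other miRNAs known from epithelial and mesenchymal cells were set beside the family, from a list made for this purpose. All 10 epithelial hairpins had reads, at a median of 154 RPM, beside 179 RPM for the 5 miR-200 members. Mir182 was at 7555 RPM, Mir192 at 5036, Mir183 at 1927 and Mir96 at 1088, the 4 that exceeded every miR-200 hairpin. Mir34a was at 245 RPM, Mir205, a partner of miR-200 in repressing Zeb1 and Zeb2, at 63.8, Mir194-2 at 42.0, Mir203, known from skin, at 14.7, Mir215 at 13.8 and Mir194-1 at 3.44. The miR-183 cluster of Mir183, Mir96 and Mir182 is likewise known to be repressed by Zeb1, and it held 23022 reads against 2614 of the miR-200 family.

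Of 11 mesenchymal hairpins 9 had reads, at a median of 267 RPM over all 11. With shared tags split equally, Mir21a led at 4830 RPM, followed by Mir143 at 946 and Mir10a at 481, and these 3 exceeded every miR-200 hairpin. Mir199b was at 268 RPM, Mir155 at 16.99 and Mir10b at 6.89, and Mir145b had 0 reads, as Mir214 did. Mir199a-1, Mir199a-2 and Mir199b had 582, 582 and 584 reads, so each level can be a part of 1 shared pool. That pool was not counted as a whole, and the median of 267 RPM is the level of Mir199a-1 and Mir199a-2. Levels of both lists thus spanned those of the family. No more than this can be read from 1 library without another cell type beside it.

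**Figure D5:**
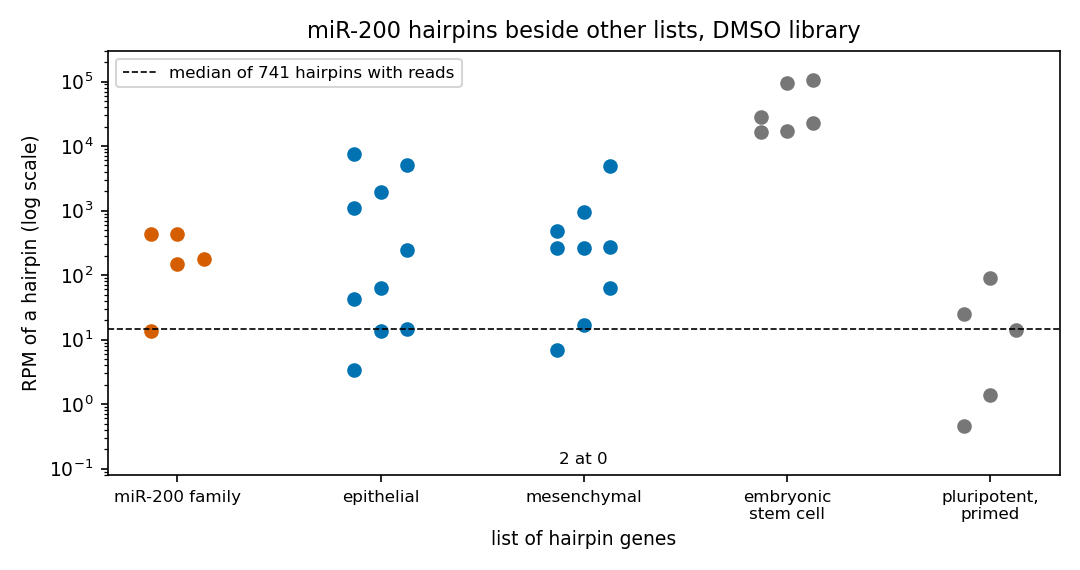
Level of each hairpin in the DMSO library in RPM on a log axis for the miR-200 family (orange), lists known from epithelial and mesenchymal cells (blue) and lists known from pluripotent cells (grey), with the median of 741 hairpins with reads as a dashed line. Points are spread sideways only for legibility, and hairpins with 0 reads are given as a count. The miR-200 hairpins lie between 13.8 and 429 RPM, inside the range of both blue lists and below all 6 embryonic stem cell hairpins.

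In the SC1 list the members had 7 reads of 15 to 17 nt in 5 tags, 0.0131% of the 53343 short reads that matched a hairpin (interval 0.00528 to 0.0270). All 5 tags are shown, since each rests on 1 or 2 reads, and the letters are the tag as deposited.
Mir200a 5p, 2 reads: catcttaccggacagt
Mir200a 5p, 2 reads: catcttaccggacagtg
Mir200c 3p, 1 read: ctaatactgccgggt
Mir200c between the arms, 1 read: gtgctggttgggagt
Mir141 between the arms, 1 read: tggttgaagtatgaagc
Mir200b and Mir429 had 0 reads, which allows up to 0.00562% for each. The Mir200a tags began at the annotated 5p start, as all 17 DMSO reads of miR-200a-5p did, and the 3p arm of Mir200a, with 917 DMSO reads, had 0 short SC1 reads. The Mir200c 3p tag began 1 base before the annotated start, the start of 12 DMSO reads. The Mir141 tag had the start of the 8 DMSO reads between its arms, and the Mir200c tag between the arms was the beginning of 0 DMSO reads. None of the 5 tags lay in a transcript of another gene. As the DMSO list has 0 reads of these lengths, SC1 treatment and the length class cannot be told apart, and the SC1 values have no DMSO counterpart.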

How the data were processed

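Small RNA was sequenced from 1 DMSO and 1 SC1 library. The authors deposited raw read counts of distinct tags; a closing line of the DMSO list that gives its sum was dropped. The submitters' processing notes name mm9. How reads were trimmed, filtered by length and aligned is not given in the sources used here. Coordinates and hairpins are those of GRCm38 (GENCODE M21), arms and seeds those of RefSeq, which listed 957 of the 1174 hairpins.

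Tags were matched exactly and in sense; tags of several hairpins were split equally. A read belonged to the arm it overlapped most. A count of 0 was given a limit of 3 counts. In simulated reads, 1559 of 1656 arms (94.1%) and all 10 miR-200 arms came within 10% of the number drawn. These reads were cut from the same hairpins, few with a substitution and none with a tail. The simulation thus cannot show how many real reads, such as tailed ones, exact matching leaves out. The members, lists and alternatives were chosen with earlier results of these data known. Named were all arms, their main tags and those of 10% or more of the arm, the top 2 tailed tags, and SC1 tags of 2 reads or more; the 3 SC1 tags of 1 read were added after their values were seen, and tailed tags of 1 to 4 reads in other arms are not printed. The listed Mir292a was not in the reference. Alternatives were other minimum counts, lengths, matches, ends and scalings. The tools were Python 3.11.15 with scipy 1.17.1, numpy 2.4.6 and, for plots, matplotlib 3.10.9.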

Additional observations from a re-analysis of the deposited data

Results flagged for a closer look

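The SC1 list enters no comparison, and 7 of its short reads matched the miR-200 hairpins, where a count of 0 would allow 3. Each of the 5 tags rests on 1 or 2 reads of 1 library. Of the 7 reads 5 began within 2 nt of an annotated arm start, 4 on Mir200a and 1 on Mir200c.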

How the results depend on the processing

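No paired analysis was possible because there was 1 library in each group. Values are the family share, the chromosome 4 and chromosome 6 clusters, and the AAUACUG and AACACUG groups, as far as they moved beyond counting error. Without shared tags, of which the members had none, they were 0.142%, 1193, 228, 791 and 509 RPM. With the top tag of each arm alone they were 0.130%, 1130.2, 168, 706 and 505 RPM. After removal of 3′ A or T they were 0.128%, 1078, 705 and 474 RPM, without the chromosome 6 cluster. Near the mature ends the share was 0.125% and the chromosome 4 cluster 1057 RPM. With tags of 20 to 24 nt the share was 0.125%, that cluster 1051 RPM and the AAUACUG group 704 RPM. With tags of 10 reads or more the share was 0.115% and the chromosome 6 cluster 172 RPM. By distinct tags the values were 0.972%, 6229, 3494, 4406 and 2279 per 1000000 tags, and the SC1 share was 0.640%. Scaled to all reads of the list, which changes only the unit, they were 0.0139%, 116, 22.3, 77.1 and 49.6 RPM. Scaled to hairpins RefSeq also lists, a setting added after seeing the data, they were 0.132%, 1109, 212, 735 and 473 RPM. The 3p share moved for Mir200b to 83.1% (most abundant tags) and 50.0% (distinct tags), for Mir200a to 99.9% (20 to 24 nt) and 75% (distinct tags), and for Mir200c to 100% (at least 2 or 10 reads) and 91.7% (distinct tags). Where no construction shows it, the cause was not tested. The other 65 of 109 values stayed within counting error, and of 110 values of single arms 37 moved. The AAUACUG to AACACUG ratio ranged from 1.397 to 1.93 and the cluster ratio from 1.78 by distinct tags to 6.73 by most abundant tags. The order of the 3p arms changed under the most abundant tag, where miR-429-3p passed miR-200c-3p, and by distinct tags, where miR-200b-3p and miR-200c-3p had 11 each and miR-200a-3p 9. Mir141 had no tag of 10 reads, so that setting gave it no 3p share. Mir141 rests on 30 DMSO reads and the SC1 values on 7 reads.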

Other observations

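In 2 of the 3p arms tailed reads began late more often than untailed reads, with intervals that did not overlap. In miR-200b-3p 28 of 171 tailed reads (16.4%, interval 11.2 to 22.8) began after the annotated start, against 6 of 738 untailed reads (0.813%, interval 0.299 to 1.76). In miR-200a-3p it was 25 of 203 (12.3%, interval 8.13 to 17.6) against 15 of 917 (1.64%, interval 0.918 to 2.68). Of these 25 reads 23 were 1 tag, which can hold copies of 1 molecule, and the interval does not cover this. In miR-200b-3p no late tailed tag had more than 6 reads. miR-200c-3p had 2 of 59 against 0 of 389, and miR-429-3p 0 of 13 against 1 of 327. Over all annotated arms the shares were 11.99% of tailed and 7.19% of untailed reads.

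Up to base 20 of the 3p arms, 22 reads carried 1 substitution. Of these 12 (54.5%) had it at base 14, where the most frequent was T14G in miR-200c-3p with 4 reads. Of the 12 reads, 7 came from miR-200c-3p, 3 from miR-200b-3p and 2 from miR-200a-3p. Over 118 other hairpins with 10 substituted reads or more the mean share at position 14 was 3.86%, and 1 of them had a share as high as 50% there. This position was chosen after its values were seen.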
